A study of Homo sapiens with 4 samples.

Results

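RS4;11 is a human leukaemia cell line, and the array of its RNA was set against the arrays of 3 further lines, SEM, NALM6 and REH, with 1 array per line and 4 arrays in all. Each of the 18354 genes analysed was described by its distance to the nearest of the other lines: RS4;11 minus the highest of SEM, NALM6 and REH where it was highest of the 4, or the lowest of them minus it where it was lowest. A gene was counted as set apart at a distance of 1 on the log2 scale, a 2-fold gap, and a 4-fold gap was counted beside it. All 4 lines are precursor B-cell acute lymphoblastic leukaemias (ALL), cultured in RPMI with fetal bovine serum and taken before the cultures were confluent, with no drug named in the labels. RS4;11 and SEM carry the translocation t(4;11), and NALM6 and REH lack it. A cell line is a clonal population from a single patient, so that the line, its culture and its array cannot be told apart here.

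In leukaemia with this translocation the histone methyltransferase gene KMT2A (MLL) is fused to AFF1, whose protein acts in transcription elongation, and the fusion protein keeps genes of early blood progenitors active. Such leukaemias are known for an immature B-lineage phenotype with some myeloid features. As background, REH is known for the ETV6-RUNX1 fusion and NALM6 for a DUX4 rearrangement, so that the comparison lines are not normal B-cell precursors.

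Values are log2 expression values that the submitters made with RMA, and every level and difference below is on that scale unless a fold is named. The medians over all probe sets lay between 6.40 and 6.46 on the 4 arrays, and the 25th percentiles between 4.97 and 5.02. Levels near 5 are therefore close to the floor of each array, and folds against them are compressed. The median over all genes of RS4;11 minus the mean of the other 3 lines was 0.02, and the number of arrays limits the precision of every value. Where a gene's value in RS4;11 is followed by 3 others without names, these are SEM, NALM6 and REH in this order.

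Most markers of the labelled cell type were above the array's median in RS4;11, though not all. Of 13 genes fixed as markers of B-lineage precursors, 11 were measured, and 9 of them exceeded the median over all genes of their array (6.70 to 6.84) in RS4;11, against 6 in SEM, 10 in NALM6 and 9 in REH. Their median level was 10.78 in RS4;11, against 7.57 in SEM, 11.44 in NALM6 and 11.61 in REH, with SEM alone low. DNTT was at 6.88 in RS4;11, against 5.11, 11.54 and 12.43. MME (5.54, against 5.34, 12.48 and 12.56) and CD34 (4.73, against 4.84, 4.73 and 4.80) did not exceed the median over all genes in RS4;11. All 4 measured mature B markers and all 4 measured erythroid and megakaryocyte markers lay below that median in every line, the platelet gene PF4 by little (6.67, against 6.65, 6.59 and 6.62). Of 6 measured myeloid markers 1 exceeded it in RS4;11, against 3, 1 and 1 in SEM, NALM6 and REH, and of 8 stromal, endothelial and epithelial markers 2 did so, against 3, 1 and 2. KMT2A was at 11.12 in RS4;11, against 10.61, 10.72 and 11.01 in SEM, NALM6 and REH, and AFF1 at 11.69, against 10.89, 11.22 and 11.30. Neither gene was 2-fold from the nearest line, and these probe sets do not separate the fusion from the normal transcripts. The tumour suppressor gene CDKN2A and its neighbour MTAP, a gene of methionine salvage, were near the floor in RS4;11 (4.90 and 4.67), NALM6 (4.69 and 4.65) and REH (4.66 and 4.60), and at 9.35 and 9.29 in SEM.

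RS4;11 stood apart in fewer genes than any other line. It exceeded all of SEM, NALM6 and REH by at least 2-fold in 130 genes (0.708% of 18354) and lay at least 2-fold below all of them in 123 (0.67%). The same counts, each line against its own other 3, were 301 and 129 for SEM, 209 and 214 for NALM6 and 402 and 229 for REH. At 4-fold it had 30 genes above (0.163%) and 45 below (0.245%), against 127 and 38 for SEM, 68 and 84 for NALM6 and 139 and 88 for REH. These counts share the same 4 arrays, and no test bears on their difference.

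**Figure D1:**
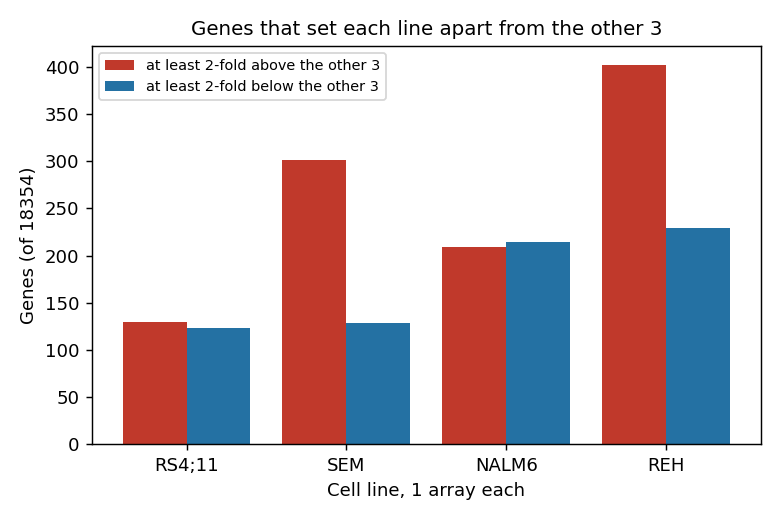
Number of genes, of 18354, in which a cell line lay at least 2-fold above (red) or below (blue) all of the other 3 lines, by line, with 1 array each. RS4;11 has 130 and 123 genes, the smallest number in either direction, and REH the largest, with 402 and 229.

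SEM, the other line with the translocation, was the nearest. RS4;11 was at least 2-fold apart from SEM in 1102 genes, from NALM6 in 1430 and from REH in 1767, while the pairs among the other lines gave 1695 (SEM and NALM6), 2056 (SEM and REH) and 1574 (NALM6 and REH). Of the 130 genes above, SEM was the closest line in 69, NALM6 in 26 and REH in 35. Of the 123 genes below, SEM was closest in 60, NALM6 in 34 and REH in 29. Over all genes it was SEM in 7719, NALM6 in 5966 and REH in 4669.

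The 130 genes above had a median level of 8.77 in RS4;11, against a median of 6.14 for the mean of the other lines, and in 67 of them the other 3 lines lay within 2-fold of each other. In 12 all 3 were under the 25th percentile of their own array. The 123 genes below had a median level of 5.91 in RS4;11, against 8.84 for the mean of the others, with the others within 2-fold of each other in 70. In 17 the low value was itself under the 25th percentile of its array. Protein-coding genes made up 121 of the 130 and 103 of the 123, and 15 of the 123 were small nucleolar RNAs. Just inside the 2-fold gap lay VPS13B (1.004), ZNF704 (1.01) and SLC22A16 (1.01) above, and FHL3 (1.01), TRIP10 (1.02) and CPNE7 (1.02) below. Just outside it lay PPFIBP2 (0.99), HES6 (0.99) and LOC389834 (0.997) above, and NFIA (0.99), HEG1 (0.998) and PGAP1 (0.9997) below.

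Limma tested RS4;11 against the mean of SEM, NALM6 and REH. The 2 residual degrees of freedom came from the spread of these 3 lines, and the lone array on the other side was assumed to vary as they do. With 1 array on that side, an exact permutation test of 1 gene, 1 line against 3, cannot go below p = 0.25. Of 18354 genes 4 were higher (0.0218%) and 2 lower (0.0109%) in RS4;11 at an adjusted p under 0.05, and all 6 are among the largest gaps given below. None of the 6 passed when SEM (smallest adjusted p = 0.221), NALM6 (0.989) or REH (0.593) was left out of limma's fit, nor with an intensity trend (0.0548), repeated quantile normalization (0.0563), arrays centred on their medians (0.0521) or dim genes removed (0.0587).

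The germline gene GTSF1 and the hormone gene PRL headed the genes above. GTSF1 encodes a cofactor of PIWI proteins in the piRNA pathway, which silences transposons in germ cells. It was at 11.99 in RS4;11, against 4.79 in SEM, 4.56 in NALM6 and 4.75 in REH, 147-fold over the highest of them (limma difference from their mean 7.29, SE 0.15, adjusted p = 0.0428). PRL, the pituitary hormone prolactin, was at 11.89 in RS4;11, against 4.94, 4.90 and 4.78 in SEM, NALM6 and REH, 123-fold over the highest (difference 7.01, SE 0.13, limma adjusted p = 0.0428). For both genes the other lines were at the floor of their arrays. In RNA of a whole culture, more cells that express a gene and more RNA per cell cannot be told apart.

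F13A1, the catalytic subunit of coagulation factor XIII, was at 10.18 in RS4;11, against 4.79 in SEM, 4.88 in NALM6 and 4.91 in REH, 38.6-fold over the highest (difference 5.32, SE 0.11, limma adjusted p = 0.0428). ADGRG7, an adhesion G protein-coupled receptor, was at 9.65 in RS4;11, against 4.39, 4.41 and 4.32 in the same order, 37.8-fold over the highest (difference 5.28, SE 0.11, limma adjusted p = 0.0428). The other lines differed from each other by little in both genes. IGF2BP2, an RNA-binding protein of fetal tissues that stabilises its target mRNAs, was at 10.10 in RS4;11, against 5.05, 4.82 and 5.71, a 21.0-fold gap. Its difference of 4.91 (SE 0.43) had a limma adjusted p of 0.488, with REH somewhat above the floor.

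**Figure D2:**
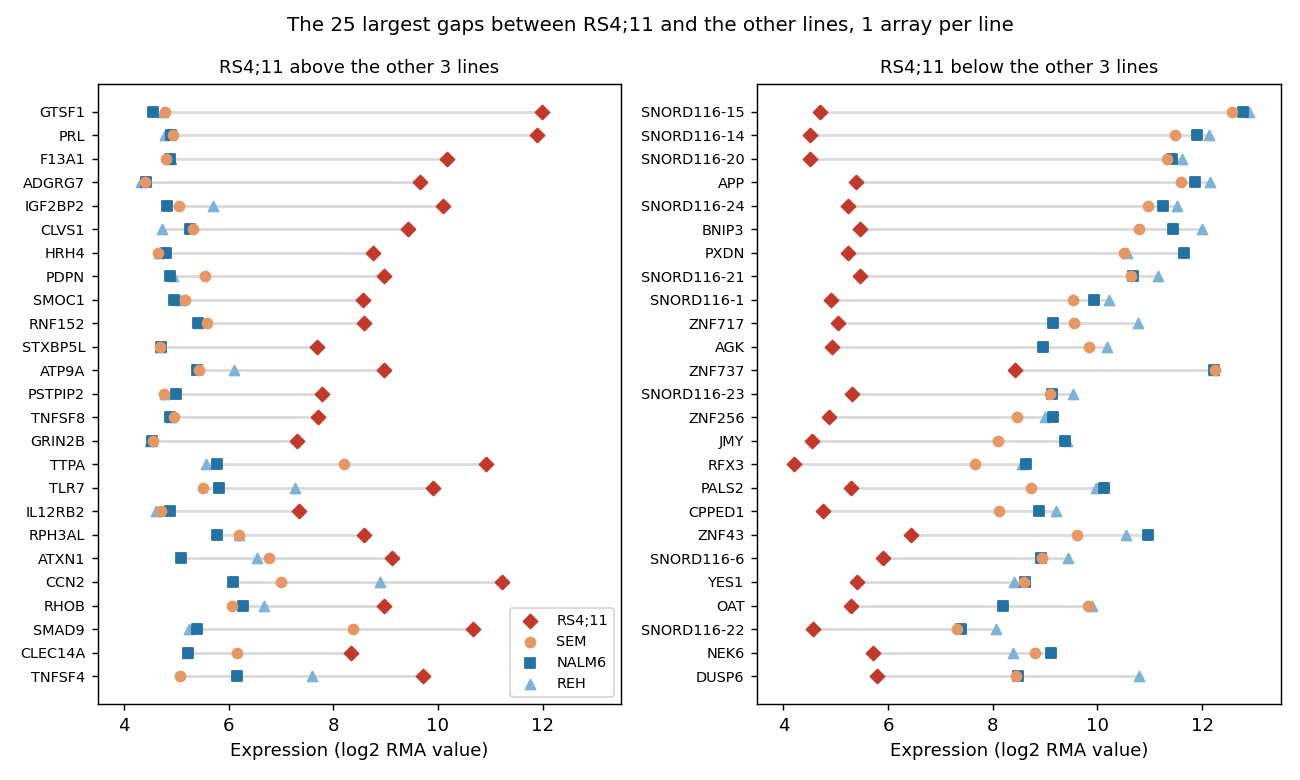
Log2 RMA values of the 25 genes farthest above (left) and the 25 farthest below (right) the other 3 lines in RS4;11, 1 array per line, ordered by the size of the gap. GTSF1 and PRL lie near 12 in RS4;11 and near 5 in SEM, NALM6 and REH, and SNORD116-15 lies at 4.70, against values above 12 in the others.

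Single receptor genes were among those above. HRH4, the histamine receptor of haematopoietic cells, was at 8.76 in RS4;11, against 4.64 in SEM, 4.80 in NALM6 and 4.67 in REH (limma adjusted p = 0.0769). Its relative HRH2 was at 8.17 in RS4;11, against 6.03, 4.99 and 6.18. The other 2 of the 4 measured histamine receptor genes stayed near the floor in every line, HRH1 at 5.28 and HRH3 at 4.98 in RS4;11. Adhesion G protein-coupled receptors held 3 genes above among 28 measured, ADGRG7, ADGRE2 (9.88, against 7.88, 6.06 and 7.19) and ADGRD1 (7.53, against 5.22, 5.03 and 5.66). GRIN2B, a subunit of the NMDA-type glutamate receptor, was at 7.30 in RS4;11, against 4.56, 4.53 and 4.49 (limma adjusted p = 0.106). Both receptor families were picked out after their values were seen, and over all genes 0.708% were above.

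The 25 largest gaps above included the immune genes TNFSF8, TNFSF4, TLR7 and IL12RB2. TNFSF8, the ligand of CD30, was at 7.71 in RS4;11, against 4.95 in SEM, 4.89 in NALM6 and 4.90 in REH, a 6.75-fold gap. TNFSF4, the ligand of OX40, was at 9.71 in RS4;11, against 5.08, 6.16 and 7.60, a 4.32-fold gap. TLR7, an endosomal sensor of single-stranded RNA, was at 9.91 in RS4;11, against 5.52, 5.82 and 7.26. IL12RB2, a subunit of the interleukin-12 receptor, was at 7.34 in RS4;11, against 4.70, 4.88 and 4.61. None of the 4 passed limma's threshold (adjusted p = 0.106 for TNFSF8). In the list of cytokine receptors and JAK-STAT genes IL12RB2 was the 1 of 42 members above, and 0 were below. Over all genes 0.708% were above and 0.67% below, and the median difference of the list was -0.06.

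In the list of immune checkpoints and co-stimulation genes 3 of 37 measured members were above, the third being the inhibitory leukocyte receptor gene LILRB1 (7.35 in RS4;11, against 5.13, 5.74 and 5.84), and 0 were below, against 0.708% and 0.67% of all genes. RS4;11 was the highest line in 15 members and the lowest in 6, against 27.1% and 19.9% of all genes. The median difference was 0.02, as over all genes. CD80, CD86 and CD274, ligands of T-cell receptors for activation or restraint, were between 4.83 and 5.01 in RS4;11. In the T and NK cell list 1 of 30 was above and 0 below, with a median difference of -0.0028. The member above was NKG7, a granule protein gene of NK and T cells, at 10.99 in RS4;11, against 9.13 in SEM, 6.39 in NALM6 and 7.11 in REH, a 3.62-fold gap. In the list of myeloid regulators and markers 0 of 32 were past the gap. In RS4;11 8 were lowest of the 4 lines, against 19.9% of all genes, and the median difference was -0.04. Outside these lists, and chosen after their values were seen, lay FCGR2A and MPEG1. FCGR2A, an activating Fc receptor gene, was at 8.73 in RS4;11, against 7.497, 7.46 and 7.54, and MPEG1, which encodes the macrophage pore protein perforin-2, at 7.60, against 5.33, 6.16 and 5.54. Of the 6 measured T and NK markers 2 exceeded the median over all genes in RS4;11, against 2 in SEM, 1 in NALM6 and 2 in REH, and the CD3 genes CD3D, CD3E and CD3G were at 4.87, 4.97 and 4.82 in RS4;11. The CD3 genes were thus at the floor, while the T and NK marker CD7 was at 7.17 in RS4;11, against 7.23, 7.07 and 7.16.

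Further single genes above had varied roles. CCN2, a matricellular growth factor, was at 11.23 in RS4;11, against 7.002 in SEM, 6.09 in NALM6 and 8.89 in REH, a 5.05-fold gap. PDPN, a mucin-type membrane protein that binds the platelet receptor CLEC-2, was at 8.97 in RS4;11, against 5.55, 4.88 and 4.94. SMOC1, a secreted calcium-binding protein that modulates BMP signals, was at 8.57 in RS4;11, against 5.16, 4.97 and 5.07 (limma adjusted p = 0.106). RHOB, a small GTPase of endosomes and actin, was at 8.97 in RS4;11, against 6.06, 6.28 and 6.67, and CLVS1, a lipid-binding protein of clathrin-coated vesicles, at 9.42, against 5.32, 5.27 and 4.72. PTPRC, the phosphatase CD45 of leukocytes, was at 11.65 in RS4;11, against 9.35, 8.45 and 10.48, a 2.25-fold gap. The order of the other lines differed among these 6 genes.

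The precursor gene of a microRNA, MIR221, was among the genes above, at 7.68 in RS4;11, against 6.34 in SEM, 6.67 in NALM6 and 5.21 in REH. It was the 1 gene of 189 measured microRNA genes past the gap, where 0.708% of all genes were above. With a gap of 1.01 it stood at the limit. RS4;11 was the highest line in 102 of the 189, against 27.1% of all genes, with a median difference of 0.11 at mostly low levels (median 5.15 in RS4;11). The neighbour of MIR221 on the X chromosome, MIR222, is processed from the same primary transcript. It was at 5.04 in RS4;11, against 4.46, 4.44 and 4.28, which left it inside the gap (0.59). The mature products are shown because they share a seed, bases 2 to 8, given in capitals (RefSeq, GRCh38.p14, minus strand, chrX:45746180-45746202 for miR-221-3p and chrX:45747036-45747056 for miR-222-3p). The probe sets cover the precursor genes and do not measure these mature forms.
hsa-miR-221-3p: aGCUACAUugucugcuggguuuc
hsa-miR-222-3p: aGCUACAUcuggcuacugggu

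Among the genes below, the small nucleolar RNAs of the SNORD116 cluster came first. SNORD116 is a cluster of near-identical box C/D small nucleolar RNA genes on chromosome 15, transcribed from the paternal chromosome in the imprinted region whose loss causes Prader-Willi syndrome. The copy SNORD116-15 was at 4.70 in RS4;11, against 12.58 in SEM, 12.78 in NALM6 and 12.90 in REH, 236-fold under the lowest of them (limma difference -8.05, SE 0.18, adjusted p = 0.0428). SNORD116-20 was at 4.51 in RS4;11, against 11.33, 11.42 and 11.62, 113-fold under the lowest (difference -6.95, SE 0.17, limma adjusted p = 0.0468). In both copies RS4;11 was at the floor of its array, while the other lines lay close together.

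Of 20 measured copies 15 were past the 2-fold gap below and 19 were lowest in RS4;11, with a median difference of -2.16. Over the copies the level ran from 4.50 through a median of 5.39 to 6.78 in RS4;11. It ran from 5.18 through 7.51 to 12.58 in SEM, from 5.32 through 7.54 to 12.78 in NALM6 and from 5.17 through 8.25 to 12.90 in REH. The copies share sequence and a host transcript and are not independent, and probes for one copy may catch another. Counted as 1 gene they leave 109 genes below in place of 123, a count added after seeing the data.

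Transcripts around the cluster did not all go with it. PWAR6, a noncoding transcript of the same region, was at 5.24 in RS4;11, against 6.83 in SEM, 6.69 in NALM6 and 7.22 in REH. SNORD115, the next cluster along the chromosome, had 0 of 20 measured copies past the gap in either direction. In RS4;11 17 were highest, against 27.1% of all genes, all at low levels (median 5.04, against 4.76, 4.73 and 4.68). No copy reached the median of all gene values (6.76) in any line, so that whether this cluster went with SNORD116 cannot be told. UBE3A, a ubiquitin ligase gene beyond it, was at 9.80 in RS4;11, against 9.74, 9.72 and 9.71. MKRN3, an imprinted gene on the other side, was at 5.97, close to SEM at 5.82, against 7.83 in NALM6 and 6.90 in REH. Of the other small nucleolar RNAs, 0 of 75 further SNORD genes and 0 of 61 SNORA genes were past the gap. Over all genes 0.708% were above and 0.67% below. RS4;11 was highest in 25 of these SNORD and 24 of these SNORA genes, against 27.1% of all genes. It was lowest in 6 and 1, against 19.9%. These groups were formed after their values were seen.

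**Figure D3:**
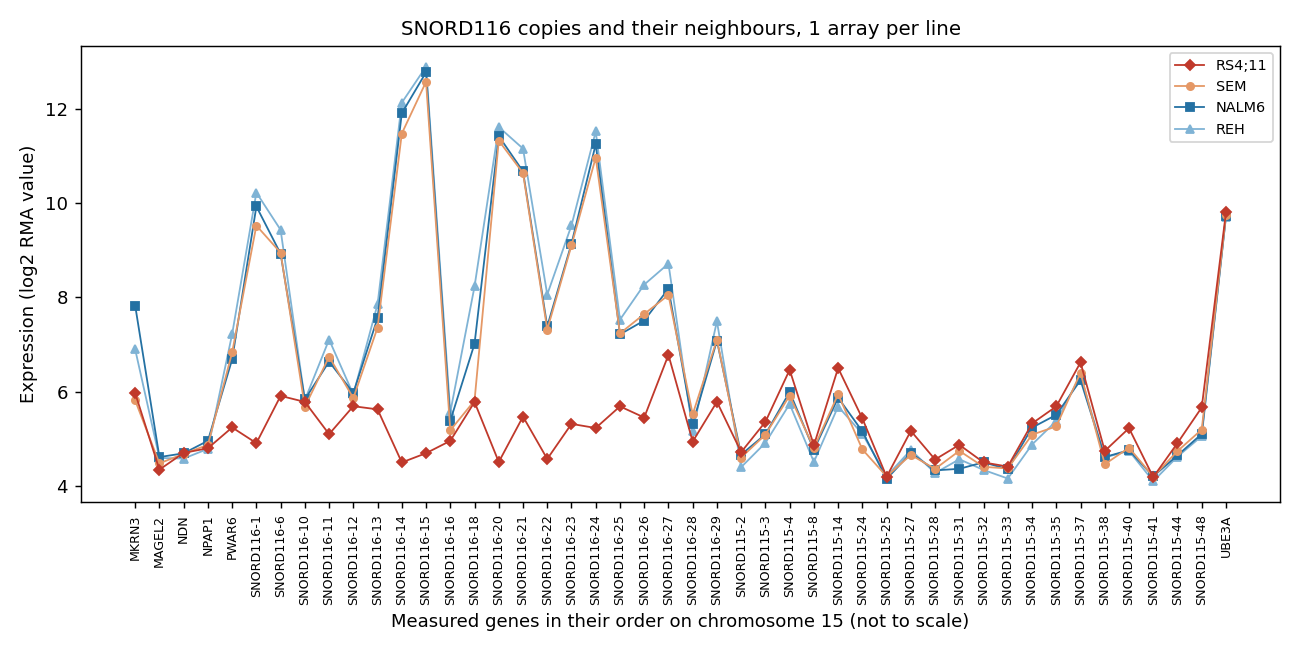
Log2 RMA values of the measured genes of the imprinted region of chromosome 15, in their order along the chromosome (not to scale), 1 line per cell line with 1 array each. From PWAR6 through the SNORD116 copies RS4;11 stays between 4.50 and 6.78 while SEM, NALM6 and REH reach 12.58 to 12.90. Over SNORD115 all 4 lines are low, with RS4;11 highest in 17 of 20 copies. At UBE3A they lie between 9.71 and 9.80.

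The next single genes below were APP, BNIP3 and PXDN. APP, the amyloid precursor protein, was at 5.39 in RS4;11, against 11.59 in SEM, 11.87 in NALM6 and 12.16 in REH, 73.9-fold under the lowest (difference -6.49, SE 0.27, limma adjusted p = 0.119). BNIP3, a mitochondrial BH3-like protein of mitophagy that hypoxia induces, was at 5.47 in RS4;11, against 10.79, 11.45 and 11.99, a 40.0-fold gap (limma adjusted p = 0.518). PXDN, the peroxidase that crosslinks collagen IV, was at 5.23 in RS4;11, against 10.52, 11.66 and 10.56, a 39.1-fold gap (limma adjusted p = 0.588). In these 3 genes every other line was far above a level near the floor. The SD of the other lines was 0.28 for APP, 0.60 for BNIP3 and 0.65 for PXDN, against 0.16 for SNORD116-15 and 0.15 for SNORD116-20.

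Further single genes below encode enzymes, kinases and regulators. AGK, the mitochondrial acylglycerol kinase, was at 4.93 in RS4;11, against 9.83 in SEM, 8.95 in NALM6 and 10.18 in REH, a 16.3-fold gap. OAT, ornithine aminotransferase, was at 5.29 in RS4;11, against 9.83, 8.19 and 9.90. YES1, a kinase of the SRC family, was at 5.41 in RS4;11, against 8.60, 8.62 and 8.41, and the mitotic kinase gene NEK6 at 5.71, against 8.81, 9.11 and 8.39. RFX3, a factor of ciliary genes, was at 4.21 in RS4;11, against 7.66, 8.64 and 8.55, and JMY, an actin nucleator and p53 cofactor, at 4.55, against 8.11, 9.38 and 9.43. ZEB1, a zinc finger repressor of epithelial genes that also acts in lymphocytes, was at 5.10 in RS4;11, against 7.48, 9.39 and 9.22, while its relative ZEB2 was at 12.03 in RS4;11, against 11.47, 11.74 and 11.54.

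Zinc finger genes were a further group below. Many of them are of the KRAB type, whose proteins bind and silence transposable elements. Of 438 measured genes named ZNF, 9 lay past the gap below and 3 above, against 0.67% and 0.708% over all genes. On chromosome 19, which holds the large clusters of this family, it was 7 of 221 below and 1 above, and elsewhere 2 of 217 below and 2 above. This grouping was chosen after the values were seen. ZNF737 was at 8.43 in RS4;11, against 12.25 in SEM, 12.23 in NALM6 and 12.22 in REH, a 13.9-fold gap (difference -3.81, SE 0.10, limma adjusted p = 0.056). ZNF43 was at 6.43 in RS4;11, against 9.62, 10.97 and 10.55, and ZNF681 at 6.48, against 8.29, 8.71 and 8.04. In all 3 the level in RS4;11 was above the floor. ZNF717 (5.05, against 9.56, 9.14 and 10.77), ZNF256 (4.87, against 8.47, 9.16 and 8.99) and ZNF549 (5.19, against 7.91, 8.09 and 7.86) were near the floor. These genes are near-identical in parts, so that their probe sets can share signal.

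The promoters of ZNF737, ZNF43 and ZNF681 are shown because these 3 genes lie in the same cluster region of chromosome 19, were low together and have related promoters, with 74.2% to 78.5% identity in global alignments, against 50.4% to 53% between each of them and ZNF256 or ZNF549. Each is the 250 bases before to 50 bases after the start of the gene, on the minus strand (RefSeq, GRCh38.p14), at chr19:20565732-20566031 for ZNF737, chr19:21836133-21836432 for ZNF43 and chr19:23758842-23759141 for ZNF681. Capitals mark the runs of 13 or more bases that all 3 promoters hold.
ZNF737: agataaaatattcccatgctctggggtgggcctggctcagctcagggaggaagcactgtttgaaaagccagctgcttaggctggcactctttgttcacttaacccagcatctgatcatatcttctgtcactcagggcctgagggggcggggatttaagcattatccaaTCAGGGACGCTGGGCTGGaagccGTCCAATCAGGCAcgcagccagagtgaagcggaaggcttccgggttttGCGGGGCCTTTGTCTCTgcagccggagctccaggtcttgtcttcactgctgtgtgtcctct
ZNF43: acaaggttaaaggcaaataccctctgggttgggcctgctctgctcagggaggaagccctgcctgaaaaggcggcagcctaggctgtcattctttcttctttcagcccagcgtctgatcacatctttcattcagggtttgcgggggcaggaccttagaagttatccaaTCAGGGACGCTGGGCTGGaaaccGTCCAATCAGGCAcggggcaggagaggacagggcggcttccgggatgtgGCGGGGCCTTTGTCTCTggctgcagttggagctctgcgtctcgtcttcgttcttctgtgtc
ZNF681: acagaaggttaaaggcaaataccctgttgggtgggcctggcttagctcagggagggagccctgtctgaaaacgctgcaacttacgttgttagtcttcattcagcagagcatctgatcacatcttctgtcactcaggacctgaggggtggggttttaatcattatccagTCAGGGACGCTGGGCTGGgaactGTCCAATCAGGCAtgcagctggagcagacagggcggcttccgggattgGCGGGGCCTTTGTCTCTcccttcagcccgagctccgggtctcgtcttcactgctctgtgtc

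Of these runs TCAGGGACGCTGGGCTGG was in 8 of 27305 promoters on either strand (0.0293%), GTCCAATCAGGCA in 23 (0.0842%) and GCGGGGCCTTTGTCTCT in 13 (0.0476%). Nearly all holders among the measured genes were named ZNF: 6 of 7, 19 of 20 and 12 of 12. Beyond the 3 genes from which the runs were taken, RS4;11 was lowest in 1 of 4, 3 of 17 and 0 of 9 measured holders, and none of those was past the gap below.

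In gene lists chosen with earlier results of these data known, 17 of 37 held a member past the gap and 20 held none. The TGF-beta and BMP pathway had the most members below. Ligands of this pathway bind pairs of type I and type II receptors, which phosphorylate SMAD proteins that then enter the nucleus. Of 39 measured members 4 were below and 1 above, 16 were lowest of the 4 lines and the median difference was -0.14, and none passed limma. Over all genes 0.67% were below, 0.708% above and 19.9% lowest of the 4 lines. The ligand gene TGFB1 was at 5.95 in RS4;11, against 9.28 in SEM, 8.79 in NALM6 and 8.36 in REH, a 5.30-fold gap. The type II receptor genes ACVR2B (5.07, against 7.14, 7.19 and 6.83) and BMPR2 (8.18, against 9.84, 9.31 and 10.33) were below as well, as was SKI, a corepressor of SMADs (6.001, against 9.53, 7.05 and 8.15). SMAD9, a receptor-regulated SMAD of the BMP branch, was the member above, at 10.67, against 8.37, 5.40 and 5.25. The shared partner SMAD4 was at 11.19, against 11.01, 11.02 and 10.97. The BMP co-receptor RGMB (5.73, against 7.54, 7.55 and 8.66) and its partner NEO1 (8.23, against 9.40, 9.38 and 10.09), picked after their values were seen, were below too.

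Receptor and kinase signalling differed gene by gene. In the list of receptor tyrosine kinases and their ligands 1 of 40 measured members was above and 1 below, against 0.708% and 0.67% of all genes. ERBB2, the receptor HER2, was at 8.78 in RS4;11, against 6.98 in SEM, 6.13 in NALM6 and 6.09 in REH, and FGFR1, a fibroblast growth factor receptor, at 5.90, against 8.33, 8.45 and 9.98. DUSP6, a phosphatase that dampens ERK and is itself an ERK target, was at 5.79, against 8.45, 8.48 and 10.79, a 6.35-fold gap. The Wnt list had 0 of 45 members above and 1 below (0.67% over all genes), the receptor gene FZD3 (7.06, against 9.23, 9.34 and 8.50). The Wnt co-receptor genes PTK7 (6.76, against 8.18, 8.43 and 8.21) and RYK (6.20, against 7.53, 9.46 and 10.11) and the formin gene DAAM1 (6.57, against 7.77, 9.78 and 7.87) lay outside that list and were picked after their values were seen. Among chemokine receptors, selectins and integrins 0 of 49 were above and 11 were lowest (19.9% over all genes). The 1 below (0.67% over all genes) was ITGA6, the laminin receptor subunit, at 4.9997, against 8.93, 7.89 and 7.40.

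**Figure D4:**
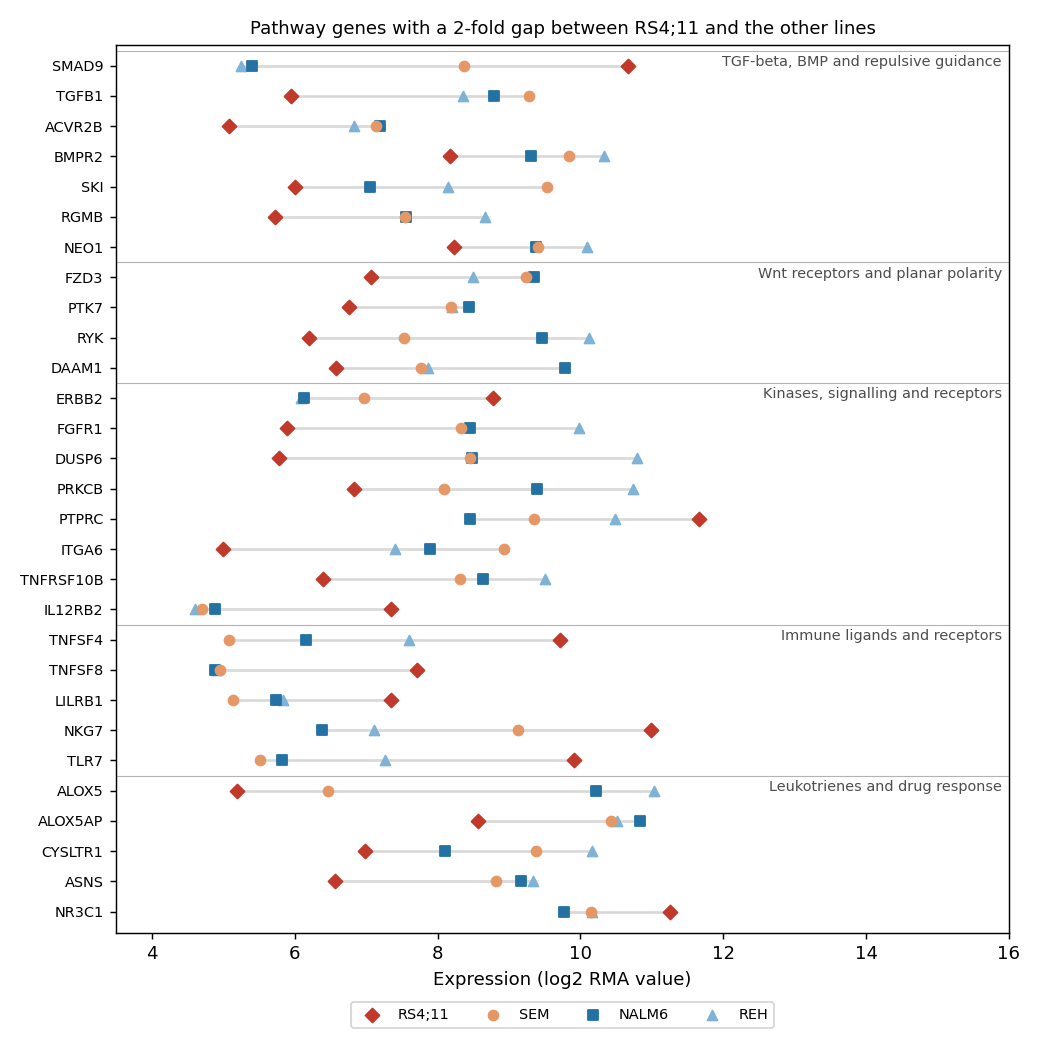
Log2 RMA values of pathway genes with a 2-fold gap between RS4;11 and every other line, grouped by role, 1 array per line. The genes were chosen for this gap. In the group of TGF-beta, BMP and repulsive guidance genes SMAD9 is the 1 gene shown in which RS4;11 is highest (10.67, against 8.37, 5.40 and 5.25).

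Some lists of B-lineage genes held 1 member past the gap in each direction, and others held none. In the list of B-lineage transcription factors 1 of 31 was above, the ETS factor gene SPIB (8.01 in RS4;11, against 6.62 in SEM, 6.67 in NALM6 and 5.78 in REH), and 1 below, ZEB1, against 0.708% and 0.67% of all genes. Among pre-B receptor signalling genes 1 of 20 was above (PTPRC) and 1 below, the protein kinase C gene PRKCB (6.84, against 8.08, 9.40 and 10.74), with a median difference of 0.31 and the same shares over all genes. Of 26 B-lineage antigens and 15 genes of V(D)J recombination and end joining 0 were past the gap. At shares of 0.708% above and 0.67% below over all genes, lists of these sizes are often expected to hold none. The surrogate light chain gene VPREB1 was at 11.35, against 7.57, 10.86 and 5.51, and PAX5, the factor of B-lineage commitment, at 11.73, against 11.90, 11.85 and 11.61.

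The list of genes known for high levels in ALL with rearranged MLL had the largest median, 0.77 over 33 measured members, with 2 above, IGF2BP2 and the actin-capping gene CAPG (9.23 in RS4;11, against 8.22, 6.59 and 6.06), where 0.708% of all genes were above. Its median level was 10.48 in RS4;11, against 10.98, 6.87 and 8.12. SEM was thus higher still, and NALM6 and REH alone were lower. The surface antigen gene CSPG4 was at 8.30, close to SEM at 7.63, against 5.74 and 4.83. NEGR1, a neural adhesion gene of the list, was at 10.63, against 5.78 in SEM, 5.37 in NALM6 and 9.90 in REH. CCNA1, a meiotic cyclin gene, was at 4.82, against 10.03 in SEM, 4.59 in NALM6 and 4.49 in REH. The last 2 genes separated the pair of lines that share the translocation. The list of genes known for low levels in such ALL had 1 of 17 below, ALOX5 (0.67% over all genes). Of 27 listed HOX and TALE homeobox genes 14 were measured, and 0 of these were past the gap. The other listed genes were not assessed.

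Of leukotriene signalling 3 genes were below, grouped after their values were seen and not counted against the rest of the pathway. ALOX5, the lipoxygenase that starts leukotriene synthesis, was at 5.20 in RS4;11, against 6.47 in SEM, 10.22 in NALM6 and 11.02 in REH. ALOX5AP, its activating protein, was at 8.56, against 10.43, 10.84 and 10.51, and CYSLTR1, a receptor of the products, at 6.99, against 9.38, 8.11 and 10.17. SEM was the nearest line in the first and NALM6 in the last.

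Lists of drug response and cell death genes held at most 1 member past the gap in each direction. In the drug response list 1 of 28 was above and 1 below, against 0.708% and 0.67% of all genes. NR3C1, the glucocorticoid receptor, was at 11.26 in RS4;11, against 10.14 in SEM, 9.77 in NALM6 and 10.16 in REH, a 2.14-fold gap. ASNS, asparagine synthetase, whose product is the amino acid that asparaginase depletes, was at 6.57, against 8.82, 9.17 and 9.34, a 4.77-fold gap. The receptor transcript was thus highest, and the synthetase transcript lowest, in the same line. TNFRSF10B, a receptor of the death ligand TRAIL, was the 1 member below among 33 BCL2 family and death receptor genes, at 6.40, against 8.31, 8.63 and 9.51. In MHC class II 1 of 15 was below, HLA-DOB (5.67, against 6.85, 7.29 and 7.59), again against 0.67% of all genes, and of 18 measured MHC class I genes 0 were past the gap.

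No member was past the gap among 37 interferon-stimulated genes, 28 proliferation genes, 29 genes of glycolysis and one-carbon metabolism, 30 of cholesterol and fatty acid synthesis, 25 of the unfolded protein and stress response and 49 of histone methylation and Polycomb. Over all genes 0.708% were above and 0.67% below, so that lists of these sizes are often expected to hold none. The medians of these lists lay between -0.18 for the unfolded protein and stress response and 0.22 for cholesterol and fatty acid synthesis. RS4;11 was the lowest of the 4 lines in 12 of the 25 stress genes and in 13 of the 28 proliferation genes, against 19.9% over all genes.

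Along the genome, the line was low or high over long runs of neighbouring genes on chromosomes 7 and 8. Measured genes were taken in windows of 50 or more neighbours in RefSeq order, 356 in all, and the median of RS4;11 minus the mean of the other lines ran from -0.51 to 0.23 over the windows. The lowest 2 were neighbours on chromosome 8, from EXTL3 to HTRA4 (-0.51, 34 of 50 genes lowest) and from SORBS3 to FZD3 (-0.46, 33 of 50). The highest lay farther along the same chromosome, from JRK to C8orf33 (0.23, 54 of 87 genes highest). In the last window of chromosome 19, from DUXA to CENPBD2P, which holds zinc finger genes, the median was -0.26.

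Joined after these values were seen, the first 5 windows of chromosome 8 (RPL23AP53 to NPBWR1, 250 genes) had a median of -0.28, and 53.6% of their genes were lowest in RS4;11, against 19.9% of all genes. Of these genes 13 were past the gap below (5.2%) and 0 above. The later 7 windows (OPRK1 to C8orf33, 387 genes) had a median of 0.18, with 57.4% highest, against 27.1% of all genes, 10 genes above (2.58%) and 1 below. The order held against each line, with medians of -0.21, -0.15 and -0.17 from SEM, NALM6 and REH in the first block and 0.17, 0.17 and 0.20 in the later block. Among genes whose mean over the 4 arrays was at or above the median of such means, a set added after seeing the data, RS4;11 was lowest in 93 of 115 in the first block (80.9%) and highest in 142 of 190 in the later block (74.7%).

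Members of the low block included XPO7, a nuclear transport receptor (8.31 in RS4;11, against 10.58, 10.75 and 10.86), CDCA2, a mitotic phosphatase adaptor (7.83, against 9.75, 9.60 and 9.49), and HOOK3, a dynein adaptor (9.08, against 10.52, 10.18 and 10.35), as well as FGFR1, FZD3 and TNFRSF10B above. Members of the high block included VPS13B, a Golgi lipid-transfer protein (11.17, against 9.79, 10.17 and 9.98), the ubiquitin ligase gene RNF19A (10.50, against 9.05, 9.07 and 9.44) and CLVS1. FZD3 and TNFRSF10B, named among pathway genes, therefore lay in a stretch where most neighbours were also low, and what the shared shift contributes to their values was not tested.

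On chromosome 7 the sizes were smaller and the order did not hold against each line. Its first 5 windows (FAM20C to SPMIP7, 250 genes) had a median of -0.25, with 30.8% of genes lowest, against 19.9% of all genes. The later 11 windows (IKZF1 to VIPR2, 583 genes) had a median of 0.07, with 35.0% highest, against 27.1% of all genes. Past the gap in these later windows were 4 genes above (0.686%, against 0.708% of all genes) and 5 below (0.858%, against 0.67%). In the first block the medians were 0.02 from SEM, -0.27 from NALM6 and -0.32 from REH, so that SEM was about as low. In the later block they were 0.11, 0.09 and 0.02, so that REH was about as high. Among genes of the upper set by mean level, chosen as on chromosome 8, the medians were -0.43 in the first block and 0.19 in the later block, with a difference of -0.01 from REH in the later one. The median of the first block was -0.37 without SEM, -0.16 without NALM6 and -0.13 without REH. Past the gap in the first block were 5 genes below (2.0%, against 0.67% of all genes) and 2 above (0.8%, against 0.708%). Those below included the Hedgehog factor gene GLI3 (5.55, against 7.21, 9.22 and 9.04) and the polarity gene PALS2 (5.28, against 8.74, 10.12 and 9.97). As background, RS4;11 has been described with an isochromosome of the long arm of chromosome 7. DNA copy number was not measured here, and its part in these values was not tested.

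**Figure D5:**
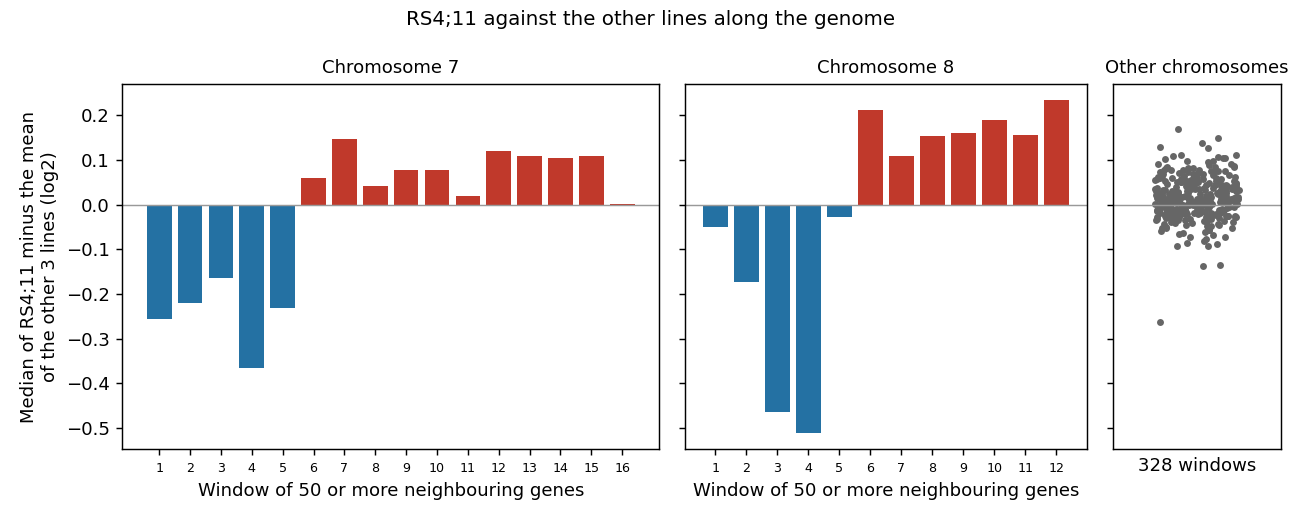
Median log2 difference of RS4;11 from the mean of the other 3 lines in windows of 50 or more neighbouring measured genes, in order along chromosomes 7 and 8 (bars) and for the 328 windows of the other chromosomes (points, spread sideways for visibility). The first 5 windows of both chromosomes lie below 0, down to -0.51, and the later windows above it, up to 0.23.

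Other probe sets of the same genes gave a partial check. Of the 130 genes above, 6 had 10 further probe sets, of which 9 were highest there and 6 past the gap. These 6 came from 3 genes, 4 of them from the pseudogene CSPG4P5, of which 3 held identical values. Of the 123 genes below, 5 had 1 further probe set each, of which 2 were lowest there and 1 past the gap, that of HLA-DOB. For most of the genes named here a single probe set is the whole measurement.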

How the data were processed

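Total RNA of 4 cell lines was hybridised to Affymetrix whole-transcript arrays, per the labels' protocols. The deposited table holds log2 values that the authors made with RMA and Partek, per the submitters' processing notes. Their versions are not stated, nor is the annotation build, and the log2 scale was inferred from the values. The lines are the samples, with a single array for each, and p-values reflect how the lines differ together with their cultures and arrays. Depth does not apply to arrays, and RMA gives no detection calls.

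Of 32968 probe sets, 19310 had 1 gene symbol, 1752 several and 11906 none, and 19279 matched RefSeq (GRCh38.p14), which updated 0 symbols. Where probe sets shared a symbol (684 genes), the set kept was that with the highest mean over the 4 arrays. Genes of the Y chromosome and XIST (23 genes) are not analysed here, which left 18354. The functions lmFit and eBayes of limma 3.58.1 (R 4.3.3) compared RS4;11 with the mean of the other lines, two-sided, at an adjusted p under 0.05 (Benjamini-Hochberg, all genes). The fit was first run on simulated data that gave all 4 arrays the same spread. These data could not test whether RS4;11 varies as the other lines do. Windows followed RefSeq order only. Genes named in the text were the 25 largest gaps in each direction, list members past the gap, the smallest limma p-values, KMT2A and AFF1, markers, CDKN2A, CDKN2B and MTAP, genes at the limit of the gap and members of extreme windows. Other genes were chosen after their values were seen. The comparison, the 37 gene lists and this rule were chosen with earlier results of these data known. CDKN2B was at 4.84 in RS4;11, against 4.93, 4.73 and 4.70. Alternatives were repeated quantile normalization, centring, the mean of probe sets, removal of dim genes (no value above the median of all gene values, 6.76), other eBayes settings, a 4-fold gap and leaving out each line. Python 3.11.15 was used with pandas 2.3.3, numpy 2.4.6 and, for plots, matplotlib 3.10.9.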

Additional observations from a re-analysis of the deposited data

Results flagged for a closer look

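Probe sets without exactly 1 gene symbol were not part of the comparison, and some of them were past the 2-fold gap. Among the genes analysed the shares were 0.708% above and 0.67% below. Of 11906 probe sets with no symbol, 56 were at least 2-fold above all of the other lines in RS4;11 (0.47%) and 17 below (0.143%). Both shares were under those of the genes, and the largest gaps were 2.39 and 3.11. Of 1752 probe sets with several symbols, 9 were above (0.514%) and 19 below (1.08%), with largest gaps of 3.06 and 7.02. No control sample sets a level for them.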

How the results depend on the processing

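The count of 130 genes above was 123 after repeated quantile normalization, 121 with centred arrays, 128 with the mean of probe sets and 123 without dim genes, and 123, 120, 128 and 123 of the same genes were kept. The count of 123 below was 130, 133, 119 and 123, with 123, 123, 119 and 123 kept. At 4-fold the counts were 30 and 45. With a line left out the counts above ranged from 189 to 342 and below from 192 to 342, the highest without SEM, where only the remaining lines set the limit (without NALM6 189 and 214, without REH 201 and 192). Limma called 0 higher and 0 lower with an intensity trend, after repeated quantile normalization, with centred arrays, without dim genes and without any of the lines (0 to 0 in both directions), where the cause was not tested, and 4 and 2 with robust eBayes or the mean of probe sets. At an unadjusted p under 0.05 limma had 388 higher and 303 lower, and over these settings 148 to 658 and 183 to 602. Of 84 named genes past the gap, 81, 81 and 84 stayed past it under the first 3 settings and 0 turned. The medians of the blocks on chromosomes 7 and 8 kept their sign, and removal of dim genes took those of chromosome 8 to -0.67 and 0.40 and those of chromosome 7 to -0.50 and 0.18. Repeated quantile normalization took the later median of chromosome 7 to 0.04. No paired analysis was possible because the groups are single arrays and share only replicate 1.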

Other observations

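Further single genes past the gap, picked after their values were seen, are given here as values. The metallothionein genes MT1E and MT1F, whose proteins bind zinc and copper, were at 9.28 and 12.07 in RS4;11, against 7.11 and 10.97 in SEM, 7.20 and 10.87 in NALM6 and 5.89 and 7.09 in REH. VDR, the vitamin D receptor, was at 7.25, against 5.96, 5.50 and 5.10, and PTGER4, a prostaglandin E2 receptor, at 10.83, against 9.60, 7.92 and 8.26. CD59, an inhibitor of complement lysis, was at 10.73, against 9.41, 8.09 and 9.38, and SERPINB1, an inhibitor of neutrophil proteases, at 10.27, against 9.10, 4.95 and 8.16. The guidance receptor genes NRP1 (7.56, against 5.55, 5.38 and 6.03) and PLXNC1 (10.93, against 9.25, 9.42 and 9.22) were above as well.

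Single genes below, picked in the same way, had varied roles. The heparin-binding growth factor gene MDK was at 7.81 in RS4;11, against 9.52 in SEM, 9.31 in NALM6 and 9.97 in REH, and IGFBP4, which binds insulin-like growth factors, at 7.27, against 9.03, 8.96 and 8.82. SLC7A11, the cystine importer that supplies glutathione synthesis, was at 8.19, against 9.64, 9.37 and 10.75. PIK3R3, a regulatory subunit of PI3-kinase, was at 6.73, against 9.78, 9.18 and 9.76, and the signalling adaptor gene TRAF5 at 5.03, against 6.34, 6.16 and 7.97. ULBP3, a stress ligand of the NK receptor NKG2D, was at 5.70, against 7.57, 8.86 and 7.43. All of these genes were past the 2-fold gap, and limma's adjusted p was above 0.05 for each.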
